A study of Mus musculus with 6 samples.

Results

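Gamma delta (γδ) T cells were examined among liver non-parenchymal cells (LNPCs) of mice with diet-induced steatohepatitis. The series holds 6 droplet single-cell RNA libraries, 3 from vehicle-treated and 3 from ginkgetin-treated male C57BL/6J mice. The mice were 8 weeks old at the start, all received a high-fat diet for 24 weeks, and during the last 8 weeks they were given dimethyl sulfoxide as vehicle, or ginkgetin, a biflavone, at 10 mg/kg per day by gavage. No mice on a normal diet were among the libraries, so every value below is from a steatohepatitis liver. Cells were chosen by their own transcripts: under 5000 genes and under 5% mitochondrial UMIs (unique molecular identifiers, that is, counted RNA molecules), at least 1 UMI of Trdc, at least 2 UMIs of Cd3d, Cd3e and Cd3g together, none of Cd4, Cd8b1 or Foxp3, and at most 1 of Cd79a. The gate took 60 of 27544 kept cells, 26 from vehicle replicate 3 and 34 from ginkgetin replicate 3.

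γδ T cells carry an antigen receptor made of a γ and a δ chain in place of the α and β chains of conventional T cells, on the same CD3 signalling complex. In mice they divide early in development into a kind that makes interleukin-17 and a kind that makes interferon-γ and carries natural killer (NK) receptors and cytotoxic granules, under T-bet (Tbx21). Both kinds live in the liver, where interleukin-17 acts on neutrophils, macrophages and stellate cells.

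Only the replicate 3 library of each group could be gated. The other 4 libraries held 0 UMIs of Trdc and of all 11 γδ receptor genes listed, and also 0 UMIs of Trac, Trbc1 and Trbc2, the constant genes of the αβ receptor, although they held 4212 CD3 cells. These 4 libraries also lacked 2253 genes that had UMIs in the replicate 3 pair, while 946 genes were seen only in the 4, so the 2 sets of libraries did not count the same genes and Trdc was not measured in the 4. The number of γδ T cells in them is therefore unknown, not 0. Within the replicate 3 pair each group has 1 library. A difference between these libraries had no replicate check, and the treatment, the mouse and the library cannot be told apart in it. Intervals on these values cover counting error only. Libraries shared at most 85 cell barcodes, and the replicate 3 pair shared 10 of their 5328 and 5611.

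The γδ T cells made up 0.628% of the 4137 kept cells of vehicle replicate 3 (95% exact binomial interval 0.411 to 0.920) and 0.933% of the 3643 of ginkgetin replicate 3 (0.647 to 1.30). As a share of CD3 cells the values were 3.002% of 866 (1.97 to 4.37) and 4.43% of 767 (3.09 to 6.14). The intervals overlapped in both cases. The difference in the share of kept cells, 0.30 percentage points higher in ginkgetin, fell to 0.04 points when every cell was thinned to 1000 UMIs, and it was −0.02 points among cells of 250 to 5000 UMIs. The difference in the share of CD3 cells, 1.43 points, moved the other way among cells of 250 to 5000 UMIs, to 4.33 points, and was 0.67 points after thinning. The gated cells had a median of 5075 UMIs and 1847 genes in vehicle replicate 3 and 5450 UMIs and 2152 genes in ginkgetin replicate 3. All CD3 cells of these libraries had medians of 4504 and 5953 UMIs, and all deposited barcodes 8050 and 5964.

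The marker genes fitted the label in part by construction. Trdc, the δ constant gene (GRCm38, chr14:54142851-54148868, GENCODE vM21), had 2 or more UMIs in 24 of the 26 cells and in 29 of the 34, and up to 68 and 15 UMIs in 1 cell. Just inside the gate lay 2 and 5 cells with a single Trdc UMI. Just outside lay 5 and 25 cells with Trdc but no CD3 UMI, 1 and 0 with 1 CD3 UMI, and 5 and 7 with a Cd4 or Cd8b1 UMI. Cd3e (chr9:44998740-45009627), a chain of the CD3 complex, was detected in 22 and 30 of the cells. The γ constant genes, which the gate did not use, gave a partial check: a UMI of Tcrg-C1, Tcrg-C2 or Tcrg-C4 was found in 25 of the 26 cells and in 31 of the 34. They were also read in other T cells. Tcrg-C1 was found in 15 of 329 and 2 of 127 CD8 T cells and 6 of 138 and 29 of 181 CD4 T cells. Among all CD3 cells without Cd4, Cd8b1 or Foxp3, which include the gated cells, it was in 39 of 341 and 89 of 439. These genes are close copies of each other, so which of them a read was counted on is uncertain. In B cells Trdc was found in 0 of 358 and 1 of 440 cells, and in macrophages, which had a median of 15511 UMIs in vehicle replicate 3, in 0 of 1238 and 0 of 535. In T cells gated with no condition on Trdc, it was found in 4 of 329 and 3 of 127 CD8 T cells. Among CD4 T cells it was in 1 of 138 and 3 of 181. How many gated cells are T cells of these kinds was not tested.

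Transcripts of the αβ receptor were also present. Trac, the α constant gene, was found in 8 of the 26 cells and 9 of the 34, with 2 or more UMIs in 2 and 4 of them, and Trbc2 in 26 and 32. Cd8a, whose partner Cd8b1 was excluded, was found in 1 and in 8 cells. Without the cells that held Trac, 18 and 25 cells were left.

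Type 17 cells made up more of the vehicle library and type 1 cells more of the ginkgetin library. A cell was called type 17 with 2 or more of 10 genes of that program and fewer than 2 of 12 type 1 genes, and type 1 the other way round. With all UMIs, 14 of 26 vehicle cells were type 17 and 8 were type 1. Of the 34 ginkgetin cells, 0 were type 17 (95% exact binomial interval 0 to 10.3%), and 28 were type 1. One cell of each library had 2 or more genes of both lists, and 3 and 5 cells had neither. After thinning each cell to 1000 UMIs the type 17 share was 42.3% (95% exact binomial interval 23.4 to 63.1) in vehicle replicate 3 and 2.94% (0.0744 to 15.3) in ginkgetin replicate 3, and the type 1 share was 19.2% (6.55 to 39.4) and 47.1% (29.8 to 64.9). The single ginkgetin cell that became type 17 on thinning was the one with 7 type 17 genes that had counted as both. The type 17 share was higher in the vehicle library under each of the 7 other settings tried, by 29.3 to 57.7 percentage points. In 20 further thinning draws the ginkgetin share lay below the vehicle share by at least 31.7 points, with a median difference of −39.4 points.

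**Figure D1:**
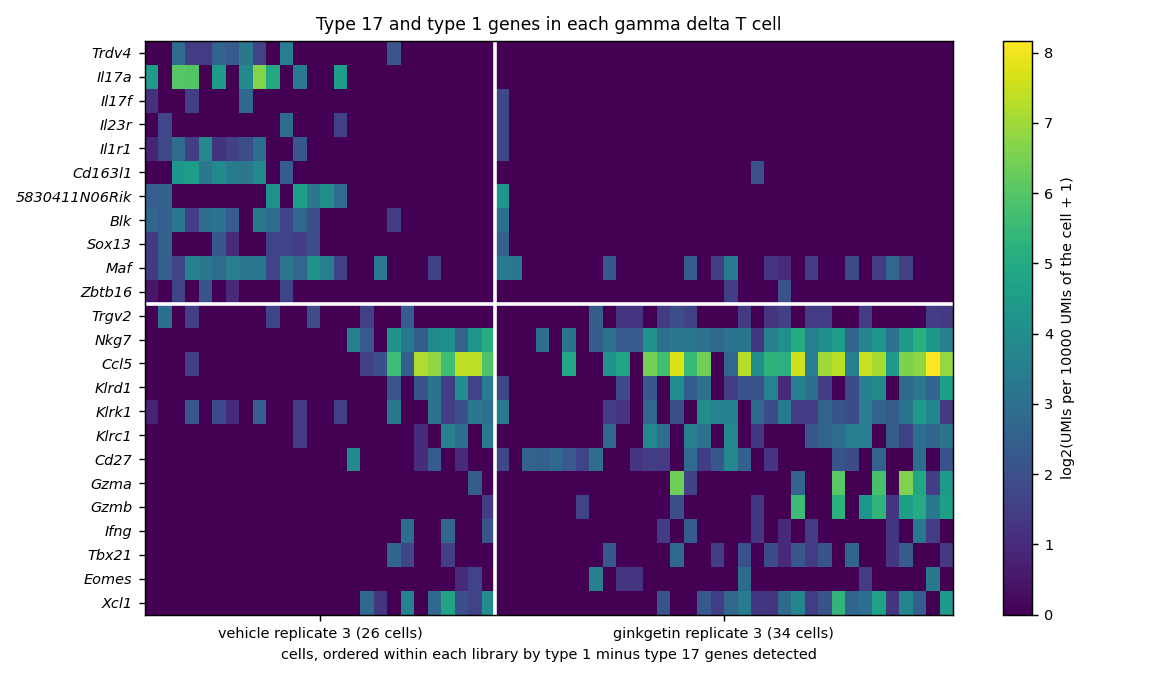
Each column is 1 of the 60 γδ T cells and each row a gene; colour is log2 of the UMIs scaled to the same total in each cell, plus 1. The upper block holds a δ variable gene and type 17 genes and the lower block a γ variable gene and type 1 genes; Il17a fills 9 vehicle columns and 0 ginkgetin columns, while Nkg7 and Ccl5 fill 29 and 25 of the 34 ginkgetin columns.

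Some type 1 genes were absent from the type 17 cells and others were not. All 14 type 17 cells came from vehicle replicate 3 and 28 of the 36 type 1 cells from ginkgetin replicate 3, so in counts over both libraries the kind of cell and the library cannot be told apart. Over both libraries, Nkg7, a granule membrane protein of killer cells, was found in 0 of the 14 type 17 cells and in 35 of the 36 type 1 cells. Klrd1 (CD94, an NK receptor chain) was found in 0 and 27, and Cd27, a costimulatory receptor, in 0 and 19. Klrk1, another type 1 call gene, was found in 6 of the 14 and 28 of the 36. Il17a, which is on the type 17 list, was in 8 type 17 cells and 0 type 1 cells. Cd27, Klrd1, Klrk1 and Il17a are call genes, so their split is partly set by the call. Nkg7, Ccl5 and Maf are not. Maf, a factor needed by interleukin-17-making γδ T cells, was found in 14 of the 14 type 17 cells and 12 of the 36 type 1 cells, 1 of them among the 8 of vehicle replicate 3. Ccl5 was found in 1 and 32. Cxcr6, a chemokine receptor of liver-resident lymphocytes, was common in both, in 13 and 27 cells.

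Il17a, the gene of interleukin-17A, had 215 UMIs in 9 cells of vehicle replicate 3 and 0 UMIs in the 34 cells of ginkgetin replicate 3. The 9 cells held 53, 45, 35, 30, 17, 14, 11, 5 and 5 UMIs. In CPM, the UMIs of a gene scaled to a common total for the summed γδ T cells, the level was 1314 (95% Poisson interval 1145 to 1502) against 0, at least 81.5-fold lower in ginkgetin against a floor of 3 UMIs in that library. The γδ T cells held 68.5% of the 314 Il17a UMIs of all kept cells of vehicle replicate 3. No kept cell of ginkgetin replicate 3 of any type had an Il17a UMI. In vehicle replicate 3, Il17a was also found, with no condition on Trdc, in 7 of 138 CD4 T cells, 0 of 329 CD8 T cells, 0 of 94 NK cells and 0 of 1238 macrophages. Il17f, its neighbour and closest relative, was far rarer, with 6 UMIs in 3 vehicle cells and 1 UMI in 1 ginkgetin cell.

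Most of the type 17 program that could be read went the same way as Il17a. Of its 22 genes, 18 had at least 10 UMIs in the 2 sums together. Of these, 15 were over 2-fold higher in vehicle replicate 3, Il17a among them, and 0 in ginkgetin replicate 3. Over all 4812 genes with that many UMIs, 12.2% were over 2-fold higher in the vehicle library and 20.7% in the ginkgetin library, with a median log2 ratio of 0.14. The program's median log2 ratio was −3.01. Cd163l1, a scavenger receptor of interleukin-17-making γδ T cells, had 58 UMIs in 8 cells against 2 UMIs in 1 cell. Its paralog 5830411N06Rik had 46 UMIs in 7 cells against 8 UMIs in 1 cell, and reads may be split between the 2. Blk, a Src-family kinase used by these cells, had 48 UMIs in 13 cells against 3 UMIs in 1 cell. Il1r1, the interleukin-1 receptor that drives them, had 24 UMIs in 10 cells against 1 UMI in 1 cell, and Il23r, the interleukin-23 receptor, had 5 UMIs in 3 cells against 1 UMI in 1 cell. Sox13, a lineage factor, had 14 UMIs in 8 cells against 2 UMIs in 1 cell. Ltb4r1, a leukotriene B4 receptor, had 48 UMIs in 10 cells against 0. In the ginkgetin library the UMIs of Blk, 5830411N06Rik, Sox13, Il1r1 and Il23r all came from the same cell, the one with 7 type 17 genes. The 2 UMIs of Cd163l1 came from another cell. Maf differed less, at 404 CPM against 134 CPM.

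The type 1 and cytotoxic program ran the other way. Of its 22 genes 20 had at least 10 UMIs, and 18 of them were over 2-fold higher in ginkgetin replicate 3 and 0 in vehicle replicate 3, with a median log2 ratio of 1.96. Gzma and Gzmb, the granzymes of cytotoxic granules, had 158 UMIs in 9 cells and 122 UMIs in 12 cells of the ginkgetin library against 2 UMIs and 1 UMI, each in 1 cell, of the vehicle library. Prf1, the pore-forming perforin, had 19 UMIs in 12 cells against 3 UMIs in 2 cells. Ccl5, a chemokine stored by memory killer cells, was the most abundant, at 6514 CPM (95% Poisson interval 6152 to 6891, 25 of 34 cells) against 3234 CPM (2964 to 3522, 11 of 26 cells). Nkg7 stood at 1026 CPM against 446 CPM. These levels, like those of the type 17 program, are over all γδ T cells of a library. Of these, 14 of 26 vehicle cells and 0 of 34 ginkgetin cells were type 17, and Nkg7 and Klrd1 were found in 0 of the 14. The sums therefore cannot tell the mix of kinds from the level in a cell, and levels within type 1 cells were not compared. Among NK receptors, Klrd1 was at 441 against 196 CPM, Klrk1 (NKG2D) at 457 against 196 CPM and Klrc2 at 349 against 36.7 CPM. The transcription factors Tbx21 and Eomes were at 113 against 30.6 CPM and at 91.4 against 12.2 CPM. Ifng, the gene of interferon-γ, differed little, with 12 UMIs in 8 cells against 8 UMIs in 3 cells.

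**Figure D2:**
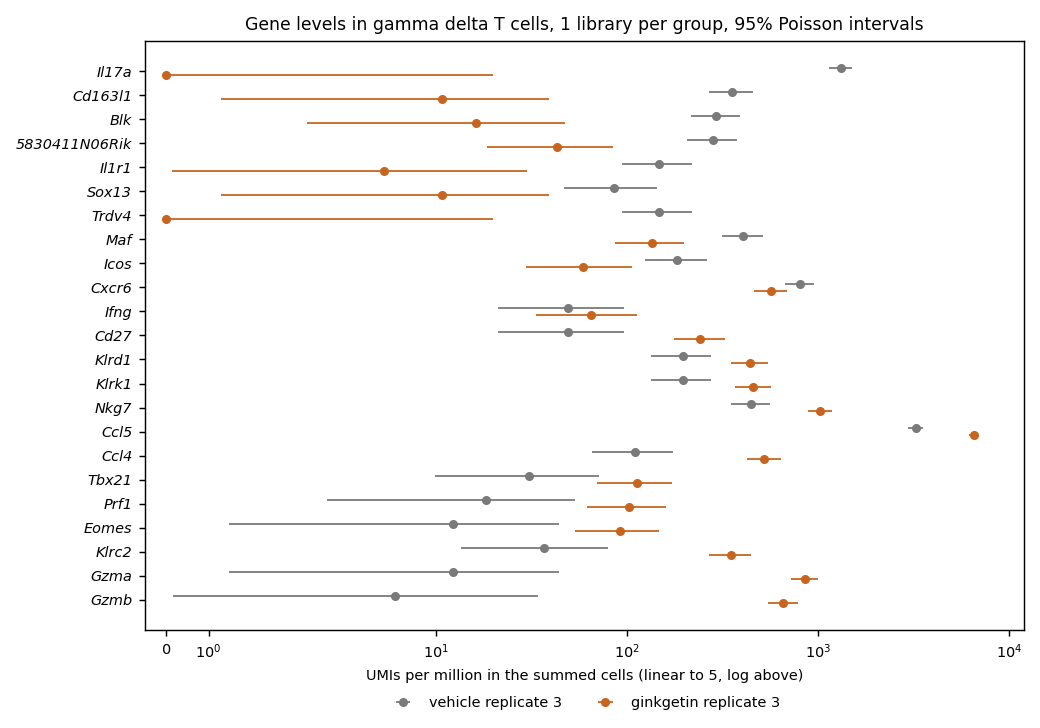
Points are CPM in the summed γδ T cells of vehicle replicate 3 (grey) and ginkgetin replicate 3 (orange), with 95% Poisson intervals that cover counting error only; the axis is linear up to 5 and logarithmic above. Il17a and Trdv4 sit at 0 in the ginkgetin library, and Gzma and Gzmb sit at 849 and 656 there against 12.2 and 6.11 in the vehicle library.

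Ranked by the size of the ratio alone, the 10 genes furthest towards the ginkgetin library, of 3575 genes with at least 50 CPM and 5 cells in the higher library, included Gzmb, Gzma, Cd8a, Klra9, Sytl3, Ehd3, Itga1, Ifitm10 and Pola2. A gene with 0 UMIs in a library was set at 3 UMIs there, so it could rank behind a gene with 1 UMI. Itga1, the collagen-binding integrin of tissue-resident cells, had 4 UMIs in 3 vehicle cells and 72 UMIs in 19 ginkgetin cells. The residence list it belongs to went both ways, with a median log2 ratio of −0.05 over 8 genes, and Itgae, another integrin of the list, had 17 UMIs in 8 vehicle cells and 4 UMIs in 1 ginkgetin cell. The 10 furthest towards the vehicle library were Capg, Il17a, Cd163l1, Il1r1, Aqp3, Actn2, Prelid2, Hspa1a, Adam8 and Blk, and Ltb4r1 tied with the last 2. Capg, an actin-capping protein, had 95 UMIs in 16 cells against 1 UMI in 1 cell. Hspa1a, an inducible heat-shock protein, had 115 UMIs in 10 cells against 7 UMIs in 1 cell, and its level was also higher in the vehicle library's CD8 T cells (313 against 46.1 CPM) and CD4 T cells (376 against 27.2 CPM).

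Other gene groups were read in the same way. In the circulation and memory group, 4 of 8 genes with enough UMIs were over 2-fold higher in the ginkgetin library and 0 in the vehicle library. Lef1 and Tcf7, factors of long-lived T cells, were at 193 against 30.6 CPM and 414 against 122 CPM. S1pr1, the receptor for exit from tissue, was at 161 against 85.6 CPM. Of the immediate-early and stress genes, 7 of 16 were over 2-fold higher in the vehicle library, Hspa1a, Hspa1b, Nr4a1, Nr4a2, Nr4a3, Nfkbia and Zfp36. Of the 8 interferon-response genes with enough UMIs, 0 passed 2-fold either way. Of 10 proliferation genes 8 were over 2-fold higher in the vehicle library, with a median log2 ratio of −3.46. This rested on few cells: Mki67 had all 27 of its UMIs in 2 cells. The summed level of the proliferation group was 2207 CPM against 414 CPM, and 779 against 426 CPM without the deepest cell of each library, which in the vehicle library had 24983 UMIs. Without these cells the type 17 call list still stood at 2511 against 108 CPM and the type 1 call list at 1118 against 3950 CPM.

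Transcripts of other liver cells were low in the γδ T cells and differed between the libraries. The 5 hepatocyte markers summed to 434 CPM in vehicle replicate 3 and 69.9 CPM in ginkgetin replicate 3, the 9 macrophage markers to 202 and 59.1 CPM, the 6 endothelial markers to 42.8 and 188 CPM and the 2 erythroid markers to 36.7 and 188 CPM. The 5 NK markers summed to 202 and 591 CPM in the γδ T cells, against 2374 and 2524 CPM in NK cells. Ncr1, the defining NK receptor, was found in 2 of the 26 and 3 of the 34 cells, and Klra8 was at 0 in both. Their part in the differences was not tested. Among cells with at most 1 macrophage or endothelial UMI, the type 17 shares were 42.9% and 3.57%.

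The variable genes of the receptor were read in few cells. Trdv4, a δ variable gene (chr14:54074905-54075515), was found in 9 of the 26 vehicle cells and in 0 of the 34 ginkgetin cells (95% exact binomial interval 0 to 10.3%), which limits the share of cells with a UMI and not the share that use the gene. Of these 9 cells 8 were type 17. Trdv4 was not limited to the gate: it was found in 24 kept cells of vehicle replicate 3, where the γδ T cells held 61.5% of its UMIs, and in 21 of ginkgetin replicate 3, 6 of them CD3 cells. Trgv2, a γ variable gene, was found in 6 vehicle cells and 14 ginkgetin cells, among them 4 of the 14 type 17 cells and 1 of the 8 type 1 cells of vehicle replicate 3 and 14 of the 28 type 1 cells of ginkgetin replicate 3. Tcrg-V1 was found in 2 and 6 cells, Tcrg-V6 in 2 and 0 and Tcrg-V4 in 1 and 0. Variable genes of the family resemble each other, so a count on 1 of them may hold reads of another.

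To compare γδ T cells with other lymphocytes of the same livers, their summed counts were compared with those of CD8 T cells (325 and 124 cells), conventional CD4 T cells (137 and 178) and NK cells (94 and 105) of the replicate 3 libraries. The CD8 and CD4 gates here exclude cells with a Trdc UMI. Each fit used edgeR's quasi-likelihood test with the library as a block, over 4 sums, which leaves 1 residual degree of freedom. Calls needed a fold over 2 and, after Benjamini-Hochberg adjustment over all genes, a p under 0.05. Against CD8 T cells 6 genes were called higher, which is 0.0983% of 6103 genes tested, and 0 lower (0%). Against CD4 T cells 7 were higher (0.129%) and 3 lower (0.0551%). Against NK cells 25 were higher (0.485%) and 39 lower (0.757%). At an unadjusted p under 0.05 the counts were 451, 260 and 348. The number of calls depended on the processing, from 0 to 139 against CD8 T cells, 0 to 87 against CD4 T cells and 0 to 140 against NK cells, so the levels in both libraries carry more weight here than the counts.

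Against CD8 T cells, the called genes were Tcrg-C1, Tcrg-C4, Sox4, Tmem176a, Tmem176b and Ckb. Tcrg-C1 (chr13:19214103-19217024) was at 263 and 210 CPM in γδ T cells of the vehicle and ginkgetin library and at 13.1 and 2.20 CPM in CD8 T cells (log2 difference 4.69 ± 0.48 SE, edgeR adjusted p = 0.021). Sox4, a transcription factor that γδ thymocytes use, was at 147 and 183 CPM against 5.11 and 6.59 CPM (4.56 ± 0.41, adjusted p = 0.016). Tmem176b, a membrane protein, was at 654 and 80.6 CPM against 51.7 and 2.20 CPM (3.72 ± 0.39, adjusted p = 0.021). Ckb, the brain-type creatine kinase, was at 269 and 220 CPM against 37.5 and 17.6 CPM (2.96 ± 0.34, adjusted p = 0.031). Both genes were also read in the other gates. Tmem176b was at 333 and 204 CPM in NK cells and 347 and 70.2 CPM in CD4 T cells. Ckb was at 184 and 155 CPM in NK cells and 80.5 and 180.0 CPM in CD4 T cells. Among cells with at most 1 macrophage or endothelial UMI, edgeR called 0 genes, with 398 at an unadjusted p under 0.05. The differences for these 6 genes then ran from 3.14 to 4.81. Of the 22 type 1 genes, 0 were called, with a median log2 difference of −0.14 beside −0.01 over all genes. That median covers genes whose difference turned between the libraries. Gzmb, for example, was lower in γδ T cells than in CD8 T cells of vehicle replicate 3 and higher in ginkgetin replicate 3 (log2 differences of −4.51 and 2.05), as were Gzma (−3.64 and 2.22), Nkg7 (−1.99 and 0.52) and Ccl5 (−2.08 and 0.67). Trac, a description since it follows the gate, was at 61.1 and 113 CPM against 557 and 481 CPM.

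Against conventional CD4 T cells, the genes called higher in γδ T cells were Cd7, Fcer1g, Klra7, Gzma, Tcrg-C1, 5830411N06Rik and Il17a. Cd7, an immunoglobulin-family receptor of lymphocytes, was at 196 and 607 CPM against 17.4 and 67.7 CPM (log2 difference 3.20 ± 0.31, edgeR adjusted p = 0.0010). Fcer1g, a signalling chain of NK and innate-like T cells, was at 196 and 489 CPM against 45.8 and 24.8 CPM (3.23 ± 0.46, adjusted p = 0.015). Klra7, a Ly49 receptor, was at 128 and 80.6 CPM against 11.1 and 6.61 CPM, and close copies in its family make its counts uncertain. Gzma was called higher as well, but it had 2 UMIs in the vehicle γδ T cells. 5830411N06Rik had 0 UMIs in the CD4 T cells of either library. Il17a was called higher although both cell types were at 0 in the ginkgetin library, so its value, 1314 against 114 CPM, is that of the vehicle library alone. Lower in γδ T cells were Ctla4, an inhibitory receptor (18.3 and 0 against 248 and 38.8 CPM), Cd5, a brake on T-cell receptor signalling (30.6 and 26.9 against 215 and 153 CPM), and Ifi27l2a, an interferon-induced gene (30.6 and 59.1 against 639 and 491 CPM).

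Against NK cells, genes of the γ chain were higher in γδ T cells, and receptors of the Ly49 family went both ways. Tcrg-C2 was at 171 and 236 CPM against 7.21 and 3.37 CPM (log2 difference 5.26 ± 0.49, edgeR adjusted p = 0.00024). S1pr1 was at 85.6 and 161 CPM against 12.6 and 32.0 CPM (2.55 ± 0.40, adjusted p = 0.0085). Lat and Cd6, which act next to the T-cell receptor, were among the genes called higher. Klrb1b, an inhibitory NK receptor, was at 0 and 21.5 CPM against 380 and 374 CPM (−4.97 ± 0.62, adjusted p = 0.0017). Gzmc, Klra4 and Klra8 had 0 UMIs in γδ T cells of both libraries and 692 and 87.7, 86.5 and 389, and 86.5 and 357 CPM in NK cells. Klra1, of the same family as Klra4 and Klra8, was called higher in γδ T cells, at 202 and 43.0 CPM against 7.21 and 15.2 CPM (3.27, adjusted p = 0.026). Of 21 type 1 genes tested 7 were called lower in γδ T cells and 0 higher, Gzma, Prf1, Ifng, Xcl1, Ccl3, Ccl4 and Klrb1c. Gzma, at 12.2 and 849 CPM in γδ T cells, was at 896 and 5280 CPM in NK cells (−3.49 ± 0.55, adjusted p = 0.0086). All 64 called genes differed in the same direction in both libraries, as did the 6 against CD8 T cells and 9 of the 10 against CD4 T cells. The remaining gene was Il17a, which had 0 UMIs in both gates of ginkgetin replicate 3. With 2 libraries a call favours genes that differ the same way in both, so this agreement is no separate check.

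**Figure D3:**
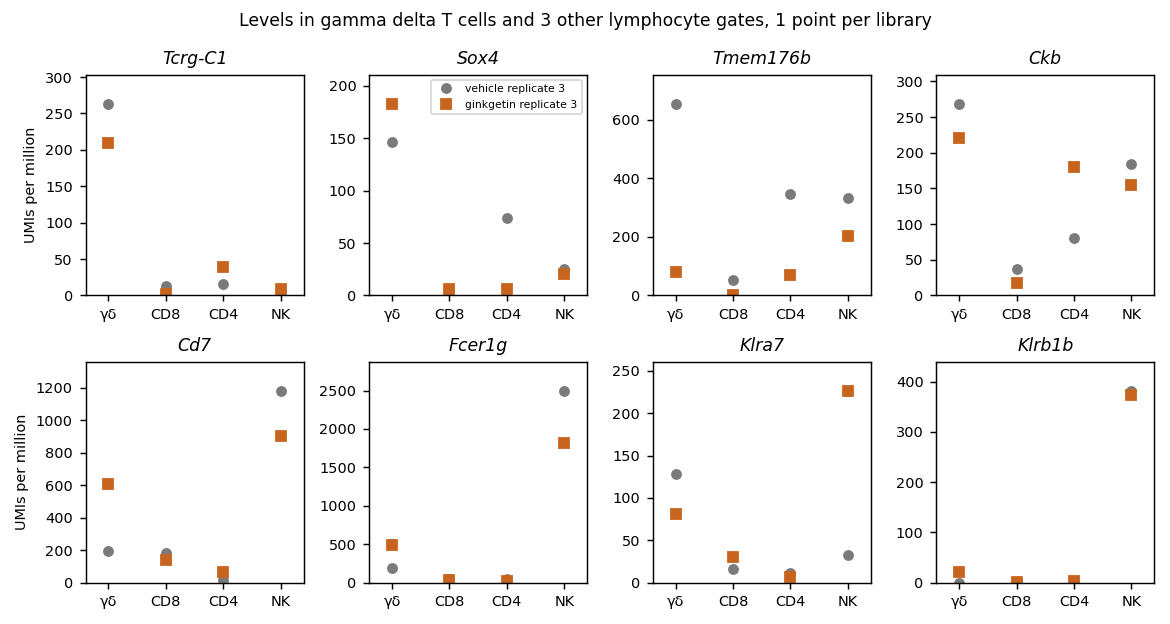
Each panel is 1 gene and each point the CPM in the summed cells of 1 library, vehicle replicate 3 (grey circles) or ginkgetin replicate 3 (orange squares), for γδ T cells and 3 other lymphocyte gates; axes are linear from 0. Tcrg-C1 and Sox4 stand highest in γδ T cells of both libraries, at 147 to 263, and Cd7, Fcer1g and Klrb1b stand highest in NK cells.

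The 6 libraries could be compared only without the Trdc condition, in CD3 cells with no Cd4, Cd8b1 or Foxp3 UMI, of which there were 600, 319 and 341 in the vehicle-treated mice and 662, 599 and 439 in the ginkgetin-treated mice. These cells are mostly not γδ T cells: where Trdc was read, γδ T cells were 7.62% and 7.74% of them. In vehicle replicate 3, 14 of the 22 type 17 cells among them had a Trdc UMI, and of the other 8 cells 7 had Trac and 3 a γ constant gene. After thinning to 1000 UMIs per cell, type 17 cells were 0.833%, 0.627% and 2.65% of these cells in the vehicle libraries and 0.151%, 0.334% and 0% in the ginkgetin libraries. The means were 1.37% ± 1.11 and 0.162% ± 0.167 (SD, n = 3 each), and the exact two-sided permutation test gave p = 0.10, the smallest p that 3 against 3 allows. The counts behind these shares were 5, 2 and 9 cells against 1, 2 and 0. Thinning is a random draw, and this draw was not the one used for the γδ T cells above, in which 11 vehicle cells were type 17. Over 20 further draws, chosen after seeing the data and each read in both gates, the ginkgetin mean lay 1.29 to 1.88 percentage points below the vehicle mean, and vehicle replicate 3 was at 2.94% to 4.71%, above the value of the draw printed here. The groups did not overlap in 13 of the 20 draws and overlapped in the others, so their separation depended on the draw. Without thinning the shares were 2.33%, 2.19% and 6.45% against 0.302%, 1.002% and 0.228%. The difference of 1.21 points rested largely on vehicle replicate 3 and was 0.57 points without it. It was 0.49 points in replicates 1 and 2 alone.

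**Figure D4:**
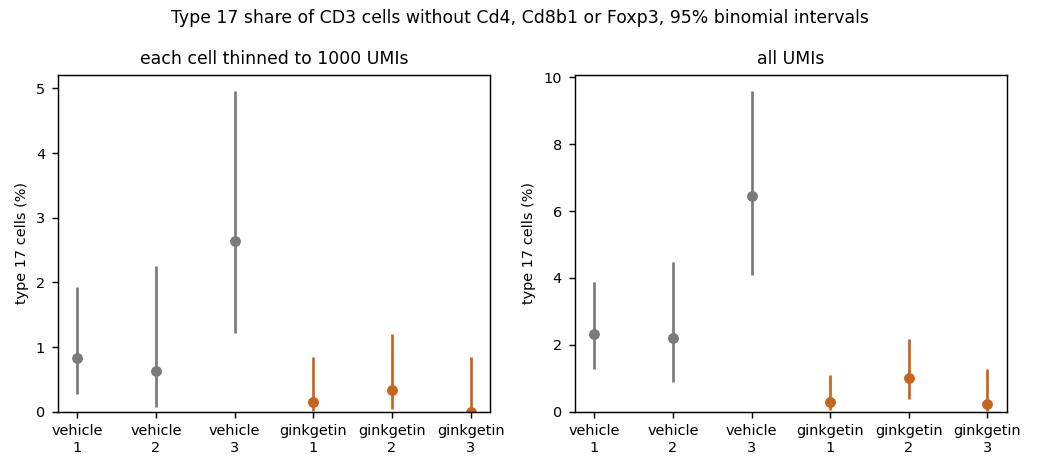
Points are the type 17 share of CD3 cells without Cd4, Cd8b1 or Foxp3 in each of the 6 libraries, in percent, with 95% exact binomial intervals, after thinning to 1000 UMIs per cell (left) and with all UMIs (right). Vehicle replicate 3 is the highest in both panels, at 2.65% and 6.45%, and the other 5 libraries lie at or below 0.833% after thinning.

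The summed levels of Il17a, Blk and Cd163l1, of the type 17 program, overlapped between the groups. Il17a had 4, 0 and 229 UMIs in these cells of the vehicle libraries and 0, 5 and 0 in the ginkgetin libraries. Blk was at 16.9 ± 13.7 CPM against 3.69 ± 3.48 CPM (log2 difference −2.17 ± 0.77 SE, edgeR adjusted p = 0.47), and Cd163l1 at 21.0 ± 15.3 CPM against 4.74 ± 4.08 CPM (−2.12 ± 0.76, adjusted p = 0.47). The lowest vehicle library, at 5.77 CPM for Blk and 8.17 CPM for Cd163l1, lay below ginkgetin replicate 2, at 7.65 and 9.17 CPM. The type 1 share did not separate the groups, at 42.5% ± 6.13 and 43.3% ± 15.9 (n = 3 each, exact permutation p = 1.0). Ginkgetin replicate 3, the library of the 34 γδ T cells, had the highest type 1 share of the 6, at 61.6%, while the other ginkgetin libraries were at 35.3% and 33.1%.

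Across all genes of these cells, edgeR called 0 of 8682 genes between ginkgetin and vehicle (0%), with 852 at an unadjusted p under 0.05 and 41 calls by DESeq2. With the replicate number as a block, 42 were called higher in ginkgetin (0.484%) and 38 lower (0.438%). Same-numbered libraries deviated together, with correlations across genes of 0.23, 0.29 and 0.60. Libraries 1 and 2 also correlated across numbers, at 0.16 and 0.23, so the numbers set replicate 3 apart more than they separate 1 from 2. With the 2 sets of libraries as the block, 11 genes were called. Groups did not overlap for 6.02% of genes in the direction of ginkgetin and 7.18% in that of vehicle, and the next 3 genes are among the latter. Hspa1a was at 693 ± 181 CPM in vehicle and 43.6 ± 19.7 CPM in ginkgetin libraries (log2 difference −4.02 ± 0.49, edgeR adjusted p = 0.18, with the replicate block 0.00047 and with the set block 0.0015). Ctla2a, a protease inhibitor of activated lymphocytes, was at 498 ± 22.2 against 169 ± 28.8 CPM (−1.63 ± 0.26, adjusted p = 0.19, with these blocks 0.0090 and 0.043). Eomes was at 60.7 ± 46.2 against 8.95 ± 2.96 CPM (−2.77 ± 0.57, adjusted p = 0.34, with these blocks 0.0065 and 0.079, no longer called with the sets), the opposite order to that in the γδ T cells of the replicate 3 pair. Of 3 type 17 call genes that could be tested 0 were called in either fit, with a median log2 difference of −2.12. All 6 endothelial markers were called higher with the block, and their summed level was 43.5 to 134 CPM in the vehicle libraries and 219 to 1089 CPM in the ginkgetin libraries. Hepatocyte markers summed to 98.8 to 1039 and 42.5 to 369 CPM, and macrophage markers to 405 to 1282 and 182 to 460 CPM. Their part in these differences was not tested. Among cells with at most 1 macrophage or endothelial UMI, each mean type 17 share was 1.94% and 0.294%, and the groups overlapped (exact permutation p = 0.20).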

How the data were processed

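The labels and the study's methods name 10X Genomics droplets for the libraries, while the labels' extraction text names a SMARTER kit, and the submitters' processing notes name the builds GRCm38 and mm10. The aligner is not given in the sources used here. The authors deposited raw UMI counts per gene and cell, 1 table per library, with 33168 barcodes (13128697 to 61796882 UMIs per library), of which 27544 passed the filters. No doublet caller was run.

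Counts were summed per library and gate and tested with edgeR 4.0.16 (TMM, filterByExpr, quasi-likelihood) in R 4.3.3, tested on simulated data. DESeq2 1.42.0, limma-voom 3.58.1, other scalings, filters and gates were the alternatives. The planned tests of ginkgetin against vehicle in γδ T cells, and against CD8 T cells, were replaced by values of the single libraries, because Trdc was measured in 1 library per group. The comparison over 6 libraries and the 2-fold counts were added after the data were seen. The 6-library tests were unpaired. Same-numbered libraries share only their number in the labels, and the number was used as a block in an alternative fit, since each pair correlated above 0.1. Replicates are libraries. The study's methods give n = 3 per group for the single-cell libraries, which matches 1 mouse per library but does not state it, and p-values measure the spread between libraries.

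Named genes are a fixed set of 22, plus up to 10 each way per comparison ranked by fold among those called in the same direction in both libraries with at least 50 CPM, and called members of the gene lists. Where fewer than 5 genes were called, the 10 with the lowest p could be named. With 1 library per group the ranking was by ratio. Members, lists and rules were chosen with earlier results of these data known. Gene positions came from GENCODE vM21 on GRCm38. Some genes that the rule names are not reported here. Thinning drew 1000 UMIs per cell with a fixed seed, separately for each gate, and 20 further draws were added after the data were seen.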

Additional observations from a re-analysis of the deposited data

Results flagged for a closer look

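Some cytotoxic genes differed in opposite directions in the summed γδ T cells and the summed CD8 T cells of the same livers. Of 26 type 17 and type 1 program genes with enough UMIs in both gates, 8 were over 2-fold higher in ginkgetin replicate 3 in γδ T cells and over 2-fold lower there in CD8 T cells. Of all 4735 genes comparable in both gates, 0.591% did the same. The 8 genes were Ccl5, Ccl4, Ccl3, Nkg7, Klrk1, Klrc1, Klrc2 and Cd160. Ccl3, Ccl4 and Ccl5 are chemokines, Nkg7 is a granule membrane protein, and the others are receptors of killer lymphocytes. The log2 ratio in γδ T cells was 1.01 for Ccl5, 2.24 for Ccl4, 2.04 for Ccl3, 1.20 for Nkg7, 1.22 for Klrk1, 1.47 for Klrc1, 3.25 for Klrc2 and 1.08 for Cd160. In CD8 T cells it was −1.74, −2.14, −1.89, −1.32, −2.80, −2.28, −2.03 and −1.18 in the same order. Ccl5, for instance, was at 3234 and 6514 CPM in vehicle and ginkgetin γδ T cells and at 13672 and 4092 CPM in CD8 T cells. Other genes of the program differed little in CD8 T cells, such as Gzma (190 and 182 CPM), Gzmb (209 and 158 CPM), Klrd1 (225 and 201 CPM) and Tbx21 (51.1 and 37.4 CPM). With 1 library per group the difference was not tested. The γδ sums also differ in their mix of cells: 14 of 26 vehicle cells and 0 of 34 ginkgetin cells were type 17. Among these 14 cells Nkg7 was found in 0 and Ccl5 in 1. The direction within type 1 γδ T cells alone was not tested and may differ from that of the sums.

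Trdc was read outside the gate in NK cells, which have no CD3 UMIs by their gate. It was found in 5.32% of 94 NK cells of vehicle replicate 3 (95% exact binomial interval 1.75 to 11.98) and in 14.3% of 105 of ginkgetin replicate 3. In B cells it was found in 0 of 358 and 1 of 440.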

How the results depend on the processing

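In γδ T cells the share of kept cells turned from 0.30 points higher in ginkgetin to −0.022 points among cells of 250 to 5000 UMIs, and the share of CD3 cells moved from 1.43 to 4.33 points there. The type 1 share stayed higher in ginkgetin, by 27.8 points, 51.6 without thinning and 47.3 without Trac. Calls against CD8 T cells were 6, and 0 among cells of 250 to 5000 UMIs, 61 without Trac, 0 with at most 1 macrophage or endothelial UMI, 14 by DESeq2, 38 by limma-voom, 139 with no filter on low genes and 1 with no library block. In the same order where the count moved by over 1.5 times, calls against CD4 T cells were 10, and 17 by UMI range, 20 without Trac, 61 with a γ constant UMI, 18 by limma-voom, 87 unfiltered, 23 with upper-quartile scaling and 0 without the block. Calls against NK cells were 64, and 23 without Trac, 133 with a γ constant UMI, 114 with few macrophage or endothelial UMIs, 11 by DESeq2, 140 by limma-voom, 0 unfiltered and 22 without the block. Where 0 were called, the genes at an unadjusted p under 0.05 numbered 44 and 398 against CD8 T cells, 100 against CD4 T cells and 403 against NK cells. The cause was not tested. Over 6 libraries 0 genes were called, and 80 with the replicate block, 11 with the 2 sets of libraries as a block, 41 by DESeq2 and 6 unfiltered. With the replicate block the type 17 share gave exact p = 0.25, the smallest that 3 pairs allow. Leaving out 1 library kept its direction, from −1.58 to −0.57 points. The type 1 share difference, 0.84 points, turned to −7.50 in replicates 1 and 2 alone, −0.46 without Cd8a UMIs and −1.15 as the median of 20 further thinning draws, and leaving out 1 library gave −8.31 to 5.99 points. No fit of ginkgetin against vehicle in γδ T cells, and none of its difference from CD8 T cells, was run under any setting, because each group had 1 library with Trdc. With 60 cells, a gene absent from a sum of 163563 or 186073 UMIs could still stand at up to 18.3 or 16.1 CPM.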
